A study of Homo sapiens with 18 samples.

Results

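Antisense transcripts are non-coding RNAs read from the strand opposite another gene, usually a protein-coding one. Of the 893 entries that the authors' rate table marks as antisense, 228 had a mean mature level of at least 5 TPM, the length-corrected share of transcripts in a library, over the 15 libraries of labelled RNA, after KCNQ1OT1, OIP5-AS1, ZFAS1 and the SNHG genes were left out. Of these, 2 entries repeated the values of others, so 226 antisense RNAs are described here, among 15120 entries of the rate table and 63568 entries of the expression table. The minimum was set on the labelled libraries themselves: AC005740.4 (5.42 TPM), AC022364.1 (5.17) and AL161457.2 (5.08) lay just inside it, and AC124947.1 (4.93), LOXL1-AS1 (4.85) and SMIM27 (4.82) just outside. Another 658 antisense entries lay below it. A member may have reached the mean through a single labelling time, so counts over the members are descriptions of a chosen set.

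HEK293, an established human embryonic kidney cell line, was given 500 µM 4-thiouridine, a uridine analogue that cells build into new RNA, for 7.5, 15, 30, 45 or 60 min. The labelled RNA was biotinylated and pulled down with streptavidin, and 3 libraries were made for each labelling time. A further 3 libraries held total RNA of the same line: replicate 1 was selected for poly(A), replicate 2 was depleted of ribosomal RNA with RNase H and replicate 3 with Ribo-Zero. The labels name no genetic change, all groups share this line and its medium, and the labels name no separate cultures behind the replicates. The p-values therefore reflect the spread among these libraries, which may be technical.

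Antisense RNAs often start close to the start of the gene on the other strand, from a shared stretch of promoter, or run through its body. They are transcribed by RNA polymerase II, capped, and in part spliced and polyadenylated, and many are kept in the nucleus or removed by the nuclear exosome soon after they are made. Short labelling captures molecules made minutes ago, with introns still present, and longer labelling adds spliced and surviving molecules. A level in labelled RNA therefore mixes synthesis, splicing and loss, while a level in total RNA is that of the standing pool. In bulk RNA, fewer cells with a transcript and less transcript per cell cannot be told apart.

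By their names, 88 members ended in -AS, for antisense to a named gene, and 37 in -DT, for a divergent transcript that starts beside a gene and runs away from it. A further 3 were LINC genes, 82 carried only a clone name or an identifier, and the rest had other symbols. Multiple exons were recorded for 123 members and a single exon for 103. In GENCODE 29, in which 214 could be placed, 199 were still typed as antisense, 6 as processed transcripts, 2 as bidirectional promoter RNAs, 2 as lincRNA, 2 as protein coding and 3 as transcribed pseudogenes.

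The start of 115 of the 214 placed members (53.7%) lay within 1000 bases of the start of a coding gene on the opposite strand. The same held for 48.1% of 618 placed antisense entries below the minimum, 25.4% of 213 lincRNAs at the same minimum and 18.6% of 9852 coding genes at that minimum. Promoter windows of 300 bases (mostly upstream of the start, RefSeq, GRCh38.p14) were matched by symbol for 107 members. The ETS core, CCGGAAG on either strand, was present in 24 of the 107 (22.4%) and in 10.3% of all 35116 promoters of the table. It was in 14 of 31 windows of -DT members (45.2%), in 10 of 76 windows of the other members (13.2%), and in 14.4% of 14896 coding promoters. The GC box, GGGCGG on either strand, was in 65.4% of the member windows against 45.0% of all promoters. It was in 83.9% of the -DT windows, in 57.9% of the windows of the other members and in 59.5% of coding promoters. TATAAA was in 4.67% against 11.5%, and CCAAT in 34.6% of both. The windows held a median of 28 CpG sites against 14 over all promoters. A match is a description of these letters and does not show a bound factor.

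The windows of 4 members are printed to show the starts behind results given later: ZNF778-DT and BOLA3-DT, which rose with labelling time, TMEM161B-DT, which fell, and LINC00852, which fell and has no divergent partner by name. Each is 300 bases, 5′ to 3′ on the strand of the member, with the ETS core and the GC box in capitals on whichever strand they match.
ZNF778-DT: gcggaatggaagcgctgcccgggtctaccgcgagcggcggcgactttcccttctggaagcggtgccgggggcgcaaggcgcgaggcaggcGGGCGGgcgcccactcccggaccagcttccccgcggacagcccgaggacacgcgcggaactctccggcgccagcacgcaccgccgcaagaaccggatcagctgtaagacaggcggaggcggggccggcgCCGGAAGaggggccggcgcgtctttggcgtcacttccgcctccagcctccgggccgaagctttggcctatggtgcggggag
BOLA3-DT: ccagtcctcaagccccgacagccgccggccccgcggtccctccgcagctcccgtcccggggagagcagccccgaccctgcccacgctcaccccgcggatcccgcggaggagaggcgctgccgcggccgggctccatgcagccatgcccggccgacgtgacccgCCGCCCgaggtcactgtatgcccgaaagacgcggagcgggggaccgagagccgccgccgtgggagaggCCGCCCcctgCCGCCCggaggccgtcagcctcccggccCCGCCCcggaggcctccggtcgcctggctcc
TMEM161B-DT: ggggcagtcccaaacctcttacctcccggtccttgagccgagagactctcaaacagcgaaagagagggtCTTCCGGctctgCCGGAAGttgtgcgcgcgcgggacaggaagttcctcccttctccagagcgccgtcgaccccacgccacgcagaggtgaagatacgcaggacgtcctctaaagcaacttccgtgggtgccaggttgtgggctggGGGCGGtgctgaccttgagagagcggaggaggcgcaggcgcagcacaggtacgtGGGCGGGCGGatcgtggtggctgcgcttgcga
LINC00852: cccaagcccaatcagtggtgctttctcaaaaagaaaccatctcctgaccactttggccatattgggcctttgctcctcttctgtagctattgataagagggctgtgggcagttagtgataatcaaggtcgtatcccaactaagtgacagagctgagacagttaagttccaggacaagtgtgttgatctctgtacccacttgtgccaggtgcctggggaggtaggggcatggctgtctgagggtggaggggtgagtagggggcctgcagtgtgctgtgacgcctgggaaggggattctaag
The ZNF778-DT window (GRCh38.p14 chr16:89217604-89217903, minus strand) holds 1 ETS core, 1 GC box and 42 CpG sites. The BOLA3-DT window (chr2:74147731-74148030, plus strand) holds 4 GC boxes, no ETS core and 41 CpG sites. The TMEM161B-DT window (chr5:88268766-88269065, plus strand) holds 2 ETS cores on opposite strands, 3 GC boxes of which a pair overlaps, and 27 CpG sites. The LINC00852 window (chr3:10284169-10284468, plus strand) holds neither motif and 2 CpG sites, and LINC00852 lies opposite GHRL, the ghrelin gene, in GENCODE 29. The windows of BOLA3-DT, ZNF778-DT and TMEM161B-DT share 168, 149 and 270 bases with those of their partners. Among -DT members whose own window and whose partner's window were both in the table, 23 of 29 pairs of windows overlapped, by a median of 214 bases, against 15 of 55 pairs for -AS members (170 bases).

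The libraries differed in ways that touch these RNAs. Members summed to 8021 to 57131 TPM of mature RNA in the labelled libraries and to 22287, 62073 and 202136 TPM in the poly(A), RNase H and Ribo-Zero libraries. Between 54.7% and 93.5% of the labelled sums came from 2 transcripts, described below, and without that pair the members summed to 3340 to 4528 TPM in labelled RNA against 1424, 1004 and 695 TPM in total RNA. The second 45 min library stood apart, with 15159 genes above 0 against 18318 to 20407 in the other labelled libraries, and it listed 13 members at 0. Genes of the line were present, with labelled means of 289 TPM for vimentin (VIM), 48.4 for N-cadherin (CDH2), 40.2 for keratin 8 (KRT8) and 47.7 for LIN28B, whereas the neuronal filament gene INA stood at 14.0, the kidney factor PAX2 at 5.64 and the neurofilament NEFM at 0.459. Of the listed markers of liver, blood, fibroblasts, endothelium and muscle, AFP, HBB, CD3E, MYH7 and COL1A2 were listed at 0 in all labelled libraries, and COL1A1 was the highest at 2.25 TPM. Since TPM carry no read counts, the depth behind each value is unknown.

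The pair of abundant members differed from the rest in level and in its order across library methods. ENSG00000258486 is an intronless entry with no symbol and no place in GENCODE 29. Its antisense type therefore rests on the authors' table alone, and whether it is an antisense RNA was not tested. It started at 6979, 52223 and 12167 TPM (7.5 min) and ended at 3262, 20558 and 6200 TPM (60 min). In total RNA it stood at 19773 TPM after poly(A) selection, 48868 after RNase H and 164926 after Ribo-Zero. Its labelled replicates overlapped between times and spread widely, and its order in total RNA followed the library method. AL355075.4, also intronless, was steady by comparison, at 1101, 1189 and 1105 TPM at 7.5 min and 1399, 1131 and 785 TPM at 60 min. It reached 1090, 12202 and 36515 TPM in the poly(A), RNase H and Ribo-Zero libraries. In GENCODE 29 it overlaps RPPH1, the RNA component of RNase P, on the same strand, so reads of both cannot be told apart in these values. The deposited estimates of copies per cell were 1191, 16706 and 53930 for ENSG00000258486 in the same library order, and 81.0, 4314 and 11231 for AL355075.4.

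The next members by labelled level were far lower. THUMPD3-AS1, named after a tRNA methyltransferase-like gene, averaged 213 ± 51.7 TPM at 7.5 min and 132 ± 36.2 TPM at 60 min (mean ± SD, n = 3). ENSG00000188206 averaged 101.7 ± 51.6 and 111.6 ± 28.5 TPM, TMEM147-AS1 90.1 ± 21.3 and 104.3 ± 11.9 TPM, and AC139530.1 44.9 ± 9.69 and 68.8 ± 10.8 TPM at the same times. Libraries of ENSG00000188206 and TMEM147-AS1 overlapped between the times. Those of AC139530.1 did not, and its change of 0.62 ± 0.27 did not pass (limma adjusted p = 0.12).

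Mature antisense RNA had no common direction over labelling time. From 7.5 to 60 min, 12 members rose and 12 fell among 226 (5.31% each way), where 15.8% of all 16739 genes tested rose and 4.21% fell (limma on log2(TPM + 1), adjusted p under 0.05 over all genes). The median change of the members was −0.13 on the log2 scale against 0.24 over all genes, with 98 members above 0 and 128 below. Coding genes at the same minimum had a median of 0.37, with 2354 higher and 467 lower of 10236. For lincRNAs the figures were −0.10, with 15 higher and 23 lower of 277. Scaling each library by the median ratio of its genes, in place of TPM, moved the all-gene median from 0.24 to −0.05 and gave 9 members higher and 26 lower with a member median of −0.45, where 1296 of all genes were higher and 1307 lower. Quantile normalization gave 9 and 24 members, against 1510 and 1176 genes. The counts are thus relative to the rest of the labelled RNA in each library.

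Multi-exon antisense RNAs had 8 higher and 2 lower of 123 with a median of −0.02, and intronless ones 4 higher and 10 lower of 103 with a median of −0.23. Intronless coding genes at the same minimum had 109 higher and 18 lower of 289, with a median of 0.70. The difference between the 2 kinds of member was not tested. At 30 min, 9 members were higher than at 7.5 min and 1 lower (limma), where 5.7% and 2.84% of all genes were. At 45 min, 9 were higher and 8 lower, against 12.3% and 4.77% of all genes. The 7.5 min libraries held the highest mean of 45 members, those of 15 min of 60, of 30 min of 45, of 45 min of 43 and of 60 min of 33. The lowest mean fell at 60 min in 85 members and at 7.5 min in 56. Means rose at every step in 6 members and fell at every step in 10. These counts of highest and lowest means and of steps were not made over all genes, so nothing is read from them.

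Of the 12 antisense RNAs that rose, 8 carried the name of a coding gene with an -AS or -DT ending. Of all 226 members, 88 ended in -AS and 37 in -DT. ZNF225-AS1, antisense to a zinc finger gene, was listed at 3.10, 4.27 and 0 TPM (7.5 min), 10.8, 11.1 and 16.0 TPM (30 min) and 30.1, 21.5 and 22.0 TPM (60 min). No replicate of the early time came near those of the last, and the change was 3.18 ± 0.47 (log2, SE; limma adjusted p = 0.000287). AL160006.1, an intronless entry with a clone name, went from 1.84, 6.14 and 2.20 TPM to 20.4, 13.8 and 16.7 TPM, a change of 2.14 ± 0.48 (limma adjusted p = 0.00516). WAC-AS1 lies opposite WAC, an adaptor of histone H2B ubiquitination. It went from 0, 4.32 and 5.58 TPM to 8.81, 10.8 and 13.9 TPM, a change of 1.87 ± 0.59 (limma adjusted p = 0.0345). The groups did not overlap for any of these 3, but the WAC-AS1 call was lost in 10 of 16 alternative analyses.

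BOLA3-DT starts beside BOLA3, a mitochondrial iron-sulphur cluster assembly gene. Its values were 3.78, 5.27 and 6.27 TPM at 7.5 min and 17.3, 17.6 and 15.1 TPM at 60 min, a change of 1.55 ± 0.38 (limma adjusted p = 0.00979). EMSLR went from 6.09, 13.4 and 6.85 TPM to 24.4, 20.8 and 23.3 TPM, a change of 1.36 ± 0.32 (limma adjusted p = 0.0075). ZNF778-DT, whose window is printed above, went from 7.76, 5.56 and 6.92 TPM to 22.6, 17.0 and 16.4 TPM, a change of 1.34 ± 0.26 (limma adjusted p = 0.00212). In all 3 the lowest 60 min library lay above the highest 7.5 min library. FGD5-AS1, named after a Cdc42 exchange factor, went from 42.2, 28.0 and 31.0 TPM to 84.6, 79.9 and 78.9 TPM and rose at each step, by 1.26 ± 0.20 overall (limma adjusted p = 0.000452). ZMPSTE24-DT, beside the protease that matures lamin A, went from 18.5, 14.6 and 19.4 TPM to 39.2, 38.2 and 42.1 TPM (1.15 ± 0.22, limma adjusted p = 0.00207).

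TUG1, a long RNA known for nuclear retention of unspliced copies, was at 51.0, 26.7 and 40.7 TPM at 7.5 min and 56.7, 77.9 and 76.3 TPM at 60 min. Its rise of 0.85 ± 0.24 passed the test (limma adjusted p = 0.0216) and was lost in 6 of 16 alternatives. THAP9-AS1 went from 32.4, 17.7 and 33.5 TPM to 48.3, 61.2 and 72.6 TPM, a change of 1.13 ± 0.25 (limma adjusted p = 0.00494). OTUD6B-AS1, whose partner is a deubiquitinase, rose by 1.13 (limma adjusted p = 0.0145), and AC093525.6, which overlaps the kinase gene PDPK1, by 1.23 (limma adjusted p = 0.00951). All 12 but WAC-AS1, TUG1 and OTUD6B-AS1, the last lost in 6, kept the call in all 16 alternatives.

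**Figure D1:**
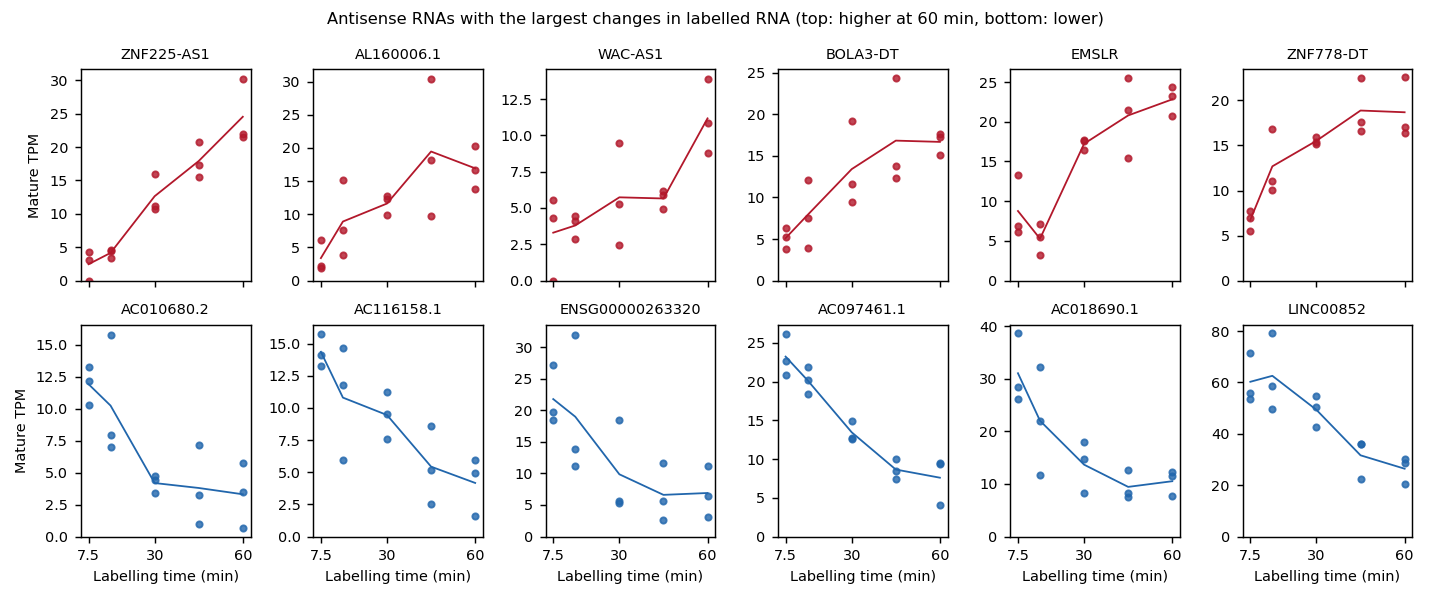
Mature TPM (y axis, linear) of single antisense RNAs against labelling time in min (x axis); points are the 3 libraries of each time and lines join their means. The top panels show members that were higher at 60 min, such as ZNF225-AS1 from 0 to 4.27 TPM up to 21.5 to 30.1 TPM, and the bottom panels members that were lower.

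Of the 12 that fell, 10 were intronless and 7 carried only a clone name or an identifier. Among all 226 members, 103 were intronless and 82 carried only such a name. LINC00852 began at 55.8, 53.5 and 71.5 TPM (7.5 min), passed 22.5, 36.2 and 36.2 TPM (45 min) and ended at 20.5, 28.5 and 30.2 TPM (60 min). It fell by 1.17 on the log2 scale (SE 0.25; limma adjusted p = 0.00381), with no overlap between the first and last times. AC097461.1 declined at every step, from 20.8, 26.2 and 22.7 TPM to 12.8, 12.7 and 15.0 TPM at 30 min and 4.02, 9.46 and 9.32 TPM at 60 min. It fell by 1.57 (SE 0.29; limma adjusted p = 0.00151), and both calls held in all 16 alternatives.

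AC018690.1 went from 26.1, 28.4 and 38.6 TPM to 12.3, 11.5 and 7.70 TPM, a change of −1.48 ± 0.37 (limma adjusted p = 0.0107). AC116158.1 went from 14.1, 15.7 and 13.3 TPM to 1.62, 4.94 and 5.94 TPM, a change of −1.69 ± 0.44 (limma adjusted p = 0.0143). AC010680.2 went from 10.3, 12.2 and 13.3 TPM to 0.70, 3.5 and 5.72 TPM (−1.79 ± 0.54, limma adjusted p = 0.0287). In each, every early library lay above every late one, but the calls of AC018690.1, AC116158.1 and AC010680.2 were lost in 2, 1 and 6 of 16 alternatives. ENSG00000263320 fell by 1.64 (limma adjusted p = 0.0496), a call lost in 9 of 16 alternatives. TMEM161B-DT, whose window with 2 ETS cores is printed above, went from 37.9, 59.0 and 57.2 TPM to 19.6, 35.2 and 19.5 TPM (−1.05 ± 0.34, limma adjusted p = 0.0429), a call also lost in 6. STAG1-DT, beside a cohesin subunit gene, went from 14.3, 10.6 and 13.2 TPM to 7.12, 6.24 and 7.02 TPM (−0.81 ± 0.26, limma adjusted p = 0.0432), a call lost in 8 of 16 alternatives. THUMPD3-AS1 went from 272.6, 179 and 187.7 TPM to 90.4, 152.2 and 154.1 TPM, and its change of −0.70 ± 0.24 was at the threshold (limma adjusted p = 0.0499) and was lost in 11 of 16. TMEM167B-DT, AL109811.3 and AC067750.1 changed by −0.97, −0.85 and −0.71, calls lost in 4, 3 and 7 of 16. Leaving out any 1 of the 6 libraries of these times left 3 to 8 members lower, with the 3 found without the first 60 min library, where the member median was −0.02. Over all genes these fits left 408 to 558 lower, with 416 of 16772 lower without that library.

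Multi-exon antisense RNAs held a larger unspliced share than coding genes at the late labelling times and in total RNA. The share was taken as primary TPM over primary plus mature TPM. Its median over the 123 multi-exon members was 42.6 ± 1.76% in the 7.5 min libraries, 43.2 ± 5.16% after 15 min, 38.5 ± 2.15% after 30 min, 33.9 ± 4.63% after 45 min and 29.1 ± 4.77% after 60 min (SD over 3 libraries). In total RNA it was 11.3 ± 2.75%, where an SD is over the 3 selection methods and not over replicates. Over coding genes at the same minimum it went from 37.7 ± 0.477% to 13.6 ± 3.07% and stood at 2.25 ± 0.579% in total RNA. For lincRNAs it went from 46.5 ± 3.53% to 25.9 ± 4.55%, with 9.09 ± 1.81% in total RNA. Members whose mean share was above 50% numbered 52 at 7.5 min, 23 at 60 min and 5 in total RNA, a count not made for the other sets. The upper quartile over genes at 7.5 min was 61.7% for members, 64.0% for lincRNAs and 51.0% for coding genes. At 60 min it was 45.0%, 43.9% and 19.9%. At 60 min the coding genes lay below both non-coding sets, which were within 1 SD of each other; these medians were not tested.

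**Figure D2:**
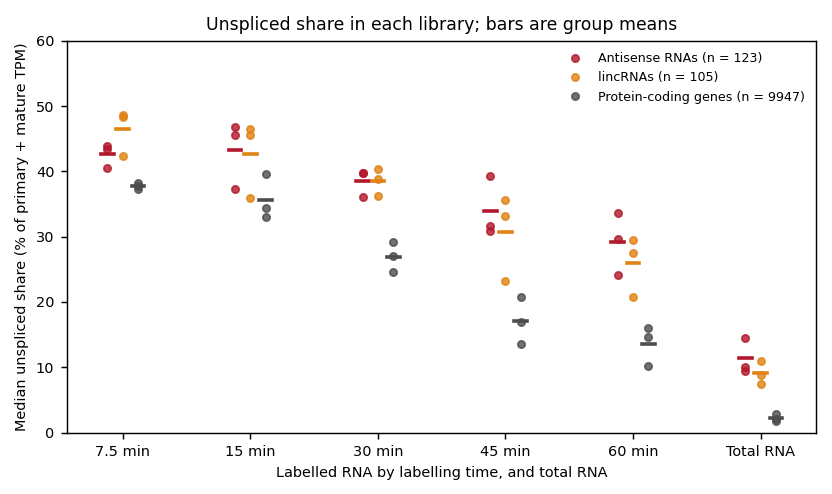
Median unspliced share (y axis, % of primary plus mature TPM) over the multi-exon antisense RNAs, lincRNAs and coding genes, by labelling time and in total RNA (x axis); points are single libraries and bars are means of 3. The antisense RNAs go from 42.6% to 29.1% and stand at 11.3% in total RNA, and the coding genes from 37.7% to 13.6% and 2.25%.

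On the ratio of primary to mature RNA, 33 of 123 members were lower at 60 min (26.8%; limma) and none higher, where 62.8% of all 13879 genes tested were lower and 1.09% higher. At an unadjusted p under 0.05, 1 member was higher. The median change was −0.95 against −1.81 over all genes, −1.97 over coding genes (7681 of 9947 lower) and −1.23 over lincRNAs (42 of 105 lower). Among antisense entries below the minimum, 17 of 201 were lower. ZNF225-AS1 had the largest fall among the members: it was 85.3%, 68.8% and 100% unspliced at 7.5 min and 20.9%, 29.1% and 31.8% at 60 min (−5.00 ± 1.10, limma adjusted p = 0.0015), and 6.67 ± 1.79% in total RNA. WAC-AS1 went from 100%, 84.5% and 81.4% to 53.0%, 53.3% and 47.8% (−4.17 ± 1.27, limma adjusted p = 0.0115). BOLA3-DT went from 82.4%, 76.7% and 58.4% to 14.1%, 17.4% and 35.4% (−3.34 ± 0.63, limma adjusted p = 0.000485). A library at 100% lists no mature RNA, so the sizes for ZNF225-AS1 and WAC-AS1 rest on the pseudocount of 0.1. The mature RNA of these 3 also rose. ZNF529-AS1, CKMT2-AS1 and RSL1D1-DT changed by −3.52, −3.0 and −2.69 (limma adjusted p = 0.0272, 0.00406 and 0.00843).

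Among well-known members the unspliced share ranged widely. TUG1 was 69.9%, 79.7% and 69.2% unspliced at 7.5 min and still 62.3%, 55.2% and 59.0% at 60 min, and in total RNA it was 19.5%, 24.6% and 19.6% unspliced. Its ratio changed by −0.94 ± 0.44 (limma adjusted p = 0.0794), which did not pass. HOTAIRM1 moved the other way in value, from 53.9%, 61.3% and 38.9% to 88.6%, 76.6% and 62.3%, with 8.10 ± 0.417% in total RNA; the change of 1.70 ± 0.72 did not pass (limma adjusted p = 0.0537). CDKN2B-AS1, the INK4 locus RNA also called ANRIL, went from 61.3%, 58.9% and 54.7% to 24.4%, 46.8% and 48.8% (−1.10 ± 0.48, limma adjusted p = 0.0601). At the other end, FGD5-AS1 was already 4.68%, 4.96% and 6.20% unspliced at 7.5 min and 2.10%, 2.49% and 3.19% at 60 min, and its ratio fell by 1.09 (limma adjusted p = 0.00576). THUMPD3-AS1 was 10.3 ± 2.03% unspliced at 7.5 min and 8.32 ± 0.474% at 60 min.

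The primary form alone was lower at 60 min in 74 of 116 members tested and higher in 1 (63.8% lower; limma), against 75.0% lower and 0.635% higher of 14497 genes, but after median-ratio scaling 52 members were higher and 1 lower, where 3175 genes were higher and 3154 lower. The median member change was −0.82 in TPM and 0.45 after that scaling, against −1.15 and 0.04 over all genes. The member median lay above the all-gene median in both, and its sign followed the scaling. LINC-PINT, a p53-induced RNA, had primary values of 10.3, 13.7 and 14.2 TPM at 7.5 min and 0.84, 2.36 and 3.32 TPM at 60 min (−2.19 ± 0.38, limma adjusted p = 0.000261). CDKN2B-AS1 went from 22.1, 29 and 25.6 TPM to 4.29, 9.0 and 9.49 TPM (−1.68 ± 0.33, limma adjusted p = 0.000493), but its change was −0.29 after median-ratio scaling and no longer passed, whereas LINC-PINT passed with −1.02. NUTM2A-AS1 changed by −1.83, TRAF3IP2-AS1 by −1.80 and ZSCAN16-AS1 by −1.73. HOTAIRM1 was the 1 member higher, from 22.6, 17.4 and 16.9 TPM to 36.6, 27.9 and 30.7 TPM (0.72 ± 0.23, limma adjusted p = 0.0113). TUG1 primary RNA went from 118.8, 104.97 and 91.5 TPM to 93.5, 95.9 and 109.6 TPM, and the groups overlapped.

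For 6 multi-exon members the deposited intron table gave 10 introns (hg19). Their median excised share was 42.6% at 7.5 min and 70.3% at 60 min, against 54.2% and 84.4% over 21782 introns. The authors' table put 1 of the 10 in its fast class, 5 in the medium and 4 in the slow class, against 8573, 9357 and 3852 of all introns. In NUTM2A-AS1 the intron at chr10:89096647-89101998 was 52.4% excised at 7.5 min and 77.0% at 60 min and was the fast one, and the 38134-base intron at chr10:89048253-89086386 went from 53.9% to 73.6%. In PCBP1-AS1 the alternative introns that share the end chr2:70312678 differed: the long one, of 34241 bases, went from 56.5% to 78.4% and the short one, of 1859 bases, from 27.4% to 69.2%. Each excised value is the authors' figure for a labelling time, with no replicate spread.

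Total RNA, the standing pool, was set beside newly made RNA as a description. It held less than 60 min labelled RNA for 163 of 226 members and more for 4 (72.1% lower; limma), against 40.1% lower and 5.24% higher of 16580 genes. Because members were chosen on the labelled libraries, nothing is read from these counts. The 3 total libraries were made by different selection methods, 1 library each, so the spread of that group in the test holds the method. The median change was −1.68 against −0.84 over all genes, −0.90 over coding genes and −1.75 over lincRNAs, and it was −1.97 for intronless and −1.45 for multi-exon members. Median-ratio scaling left 97 members lower with a median of −0.90, where 2517 genes were lower and 2856 higher with a median of −0.062. RSL1D1-DT was at 14.4, 14.6 and 14.0 TPM at 60 min and 0.04, 0.23 and 0.18 TPM in total RNA. THUMPD3-AS1 went from 90.4, 152.2 and 154.1 TPM to 34.2, 22.4 and 17.6 TPM. CAPN10-DT and NFYC-AS1, the latter opposite a subunit of the CCAAT-binding factor NF-Y, changed by −3.32 and −3.28. FGD5-AS1 kept 59.2, 30.2 and 40.1 TPM in total RNA, and TUG1 67.4, 52.3 and 21.5 TPM.

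The 4 members higher in total RNA were the abundant pair, AL445524.1 and HOTAIRM1. AL445524.1 was at 2.37, 6.60 and 9.0 TPM at 60 min and 36.8, 27.4 and 17.4 TPM in total RNA, and its 7.5 min values of 14.2, 13.4 and 28.3 TPM overlapped the range in total RNA. HOTAIRM1 was at 4.71, 8.55 and 18.6 TPM at 60 min and 30.6, 19.2 and 19.5 TPM in total RNA. Both were mostly spliced in the pool, at 3.66%, 5.17% and 2.02% unspliced for AL445524.1. Without the first 60 min library only AL355075.4 passed, and without the poly(A) library AL445524.1 and HOTAIRM1 no longer did.

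Across the selection methods, 91 members had at least 5 TPM in 1 of the total RNA libraries. Poly(A) selection gave at least 1 log2 unit more than both depletions for 2 of them (2.20%; background 3.76% of 11078 genes) and at least 1 unit less for 2 (2.20%; background 0.605%). HOXA11-AS, opposite a homeobox gene of the limb and uterus, was at 14.8 TPM after poly(A) selection and at 5.77 and 5.62 TPM after RNase H and Ribo-Zero. BBOX1-AS1 was at 5.30, 0.92 and 1.85 TPM. With a pseudocount of 0.1 in place of 1, 6 of the 91 were higher after poly(A) selection (6.59%), against 5.49% of all genes. The pair lower after poly(A) selection was ENSG00000258486 and AL355075.4. With 1 library a method these differences have no replicate check. By the deposited copy estimates, 178, 96 and 181 of the 226 members were under 1 copy per cell in the poly(A), RNase H and Ribo-Zero libraries. The median without the abundant pair was 0.414, 1.15 and 0.382 copies, against 2.08, 6.19 and 2.46 for coding genes at the same minimum.

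**Figure D3:**
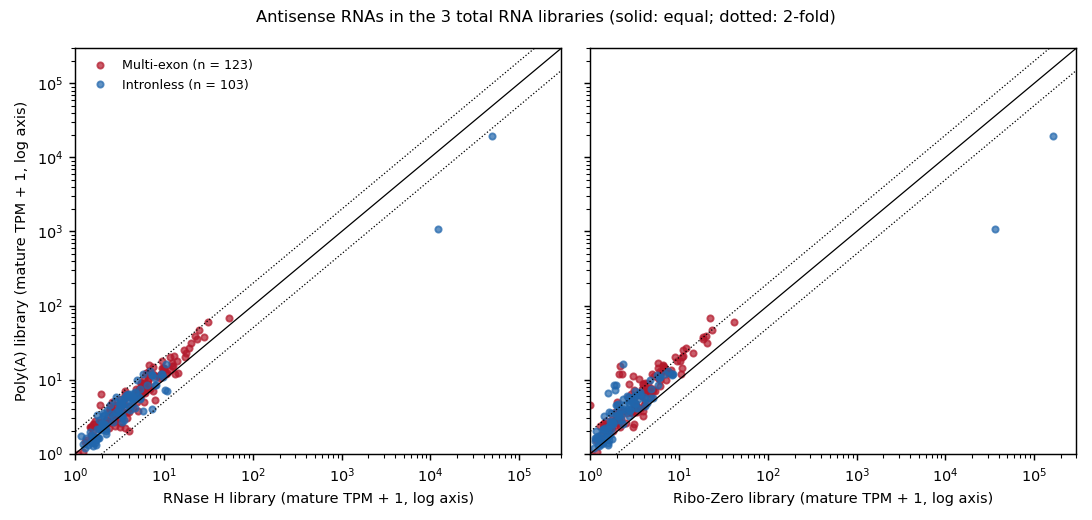
Mature TPM + 1 of each antisense RNA in the poly(A) library (y axis, log scale) against the RNase H and the Ribo-Zero library (x axes, log scale); the solid line marks equal values and dotted lines a 2-fold difference. The abundant pair lies far below the line, at 19773 and 1090 TPM after poly(A) selection against 164926 and 36515 TPM after Ribo-Zero.

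The authors' deposited table gives rate scores for every member, centred by the authors. The median over all entries was 0.12 for synthesis and −0.042 for degradation, so 0 is not always the middle of the table. Synthesis and degradation are on a log10 scale and were estimated from the same labelled and total libraries, and no test is made on them. The degradation score had a median of 0.32 over the members (quartiles 0.11 and 0.56) and was above 0 for 190 of 226, against medians of −0.12 over coding genes and 0.29 over lincRNAs at the same minimum and 0.52 over antisense entries below it. Its highest values were 2.49 for AL133375.1, 1.64 for RSL1D1-DT and 1.41 for AC015802.1, and its lowest −1.61 for AL355075.4, −1.31 for ENSG00000258486 and −0.54 for AL445524.1. Across the 226 members it had a Pearson r of −0.22 and a Spearman rho of −0.31 with the change of mature RNA from 7.5 to 60 min, a description over genes whose values come from the same libraries. The synthesis score had a median of −0.06, against 0.31 over coding genes. It was highest for ENSG00000258486 (2.79) and stood at 1.04 for THUMPD3-AS1 and 0.95 for TUG1. The processing score, whose log base the sources do not give and which was imputed for intronless genes, had a median of −0.23 over multi-exon members against 0.14 over coding genes, with −0.76 for TUG1 and 0.67 for FGD5-AS1.

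The cytoplasmic to nuclear score of most of the 226 members lay below the authors' centre. Being centred, it is relative to other genes and does not give the share of RNA in the nucleus. Its median in the authors' deposited table was −0.32, and 170 of 226 members (75.2%) lay below 0. The same held for 47.4% of all entries, and for 44.1% of coding genes and 82.3% of lincRNAs at the same minimum. Antisense entries below the minimum had a median of 0.0252606, with 45.6% below 0. The median over all 15120 entries was the same to every digit. Whether low entries carry a filled-in score was not tested, so nothing is read from the difference between members and these entries. The median was −0.43 for intronless members and −0.17 for multi-exon ones. It was 0.05 over coding genes, 0.19 over intronless coding genes and −0.45 over lincRNAs. The lowest were ZNF790-AS1 (−3.17), AC005740.4 (−2.45) and POLR1HASP (−2.25), and the highest AL080276.2 (2.10), ZBED5-AS1 (0.82) and CIRBP-AS1 (0.68). Members starting within 1000 bases of an opposite coding start had a median of −0.20 and the other placed members −0.42. Their median changes from 7.5 to 60 min were 0.06 over the 115 and −0.27 over the other 99, a difference that was not tested. Across the 226 members, the degradation and cytoplasmic scores had a Pearson r of −0.49 and a Spearman rho of −0.58. The Pearson r was −0.42 over lincRNAs and −0.53 over coding genes. These are descriptions over genes and not over replicates. None of the libraries used here was of a nuclear or cytoplasmic fraction.

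**Figure D4:**
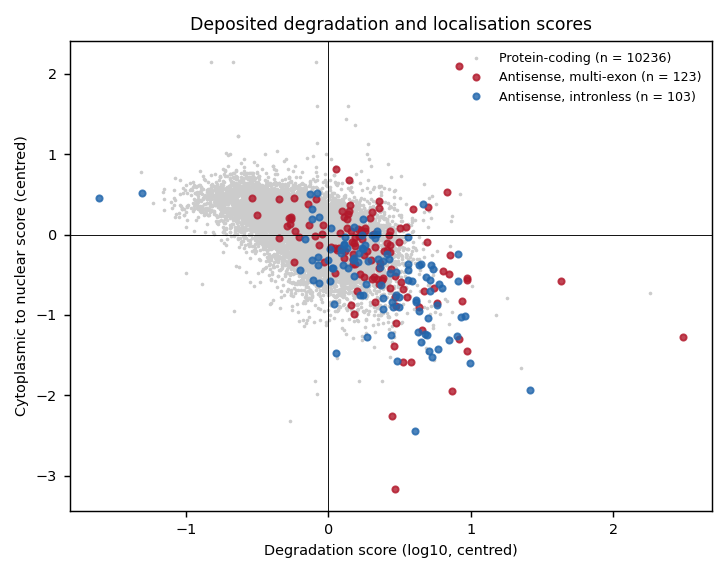
Deposited cytoplasmic to nuclear score (y axis) against the degradation score (x axis, log10), both centred on 0, with coloured points for multi-exon and intronless antisense RNAs and grey points for coding genes at the same minimum. Most antisense points lie at positive degradation and negative cytoplasmic scores, around the medians of 0.32 and −0.32.

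On translation, the deposited score was at its lowest listed value for 168 of 226 members (74.3%), against 80.5% of lincRNAs and 4.79% of coding genes at the same minimum. It was 88.3% for intronless members. The highest scores were 0.94 for WASL-DT, 0.91 for EMSLR and 0.68 for ZSCAN16-AS1. The score for polysomal against other cytoplasmic RNA had a median of 0.02 and was highest for AL031848.2 (1.24), TAPT1-AS1 (0.55) and AC023509.4 (0.51). In the authors' 7 clusters of genes by metabolism, 154 members (68.1%) were in c6, 33 in c4, 24 in c3, 14 in c7 and 1 in c2, and none in c1 or c5. Of lincRNAs at the same minimum 74.4% were in c6, and of coding genes 5.33%. Neither of these sets had a gene in c5. Antisense entries below the minimum had 40.3% in c5, 43.8% in c7 and 11.4% in c6, so the cluster shares of the members depend on the minimum.

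The genes that the antisense RNAs are named after behaved differently from them. Partners with an -AS member numbered 85, of which 74 passed the filter on low values; 36 -DT members were paired the same way, an extension chosen after seeing the data, with 35 partners tested. From 7.5 to 60 min 35 of the 109 partners rose and 7 fell (32.1% and 6.42%; limma), while 7 of their antisense RNAs rose and 4 fell. Of all 16739 genes 15.8% rose and 4.21% fell. Of coding genes with a mean of at least 5 TPM, 23.0% rose and 4.56% fell, with a median change of 0.37. Median changes were 0.59 for partners and −0.08 for the antisense RNAs, and the antisense value was the lower in 75 of 109 pairs. Both rose in 3 pairs. One was ZNF225, at 8.14, 13.1 and 14.7 TPM at 7.5 min and 53.9, 50.3 and 69.5 TPM at 60 min (2.21 ± 0.31, limma adjusted p = 0.000193), beside the rise of ZNF225-AS1. ZNF778 and WAC were the others, with changes of 1.5 and 0.87 (limma adjusted p = 0.0221 and 0.00397).

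BOLA3 and BOLA3-DT moved apart from starts that share a GC-rich window. BOLA3 went from 43.8, 33.5 and 61.3 TPM to 16.0, 11 and 18.1 TPM (−1.54 ± 0.37, limma adjusted p = 0.00838), while BOLA3-DT went from 3.78, 5.27 and 6.27 to 17.3, 17.6 and 15.1 TPM. In total RNA BOLA3 stood at 67.9, 45.6 and 46.6 TPM and BOLA3-DT at 7.85, 4.52 and 3.16 TPM. TMEM161B was at 14.5, 25 and 24.7 TPM and then 28.7, 34.4 and 36.5 TPM beside the fall of TMEM161B-DT, and its own change of 0.64 did not pass (limma adjusted p = 0.118). The change of THUMPD3, 0.72, did not pass either (limma adjusted p = 0.112), beside −0.70 for THUMPD3-AS1. The sources used here do not give whether the authors' counting used strand, although the libraries were strand-specific, so where exons of a pair overlap their reads may not be separable.

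By the authors' deposited table, the degradation score was higher for the antisense RNA than for its partner in 88 of 106 pairs, with medians of 0.31 and −0.07. For -AS pairs alone the count was 59 of 73. The medians over all members and over coding genes at the same minimum were 0.32 and −0.12, so a similar difference is found without pairing. The synthesis score was lower for the antisense RNA in 83 of 106 pairs and the cytoplasmic score in 66 of 106. Degradation scores of the members of a pair had a Pearson r of −0.05 over 106 pairs, and their changes with labelling time an r of 0.10 over 109, both as descriptions. Mean labelled TPM was higher for the antisense RNA than for its partner in 38 of 121 pairs, and 12 partners were under the filter, FGD5 among them. Members were chosen by a minimum on this same value and partners were not, so nothing is read from the 38.

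**Figure D5:**
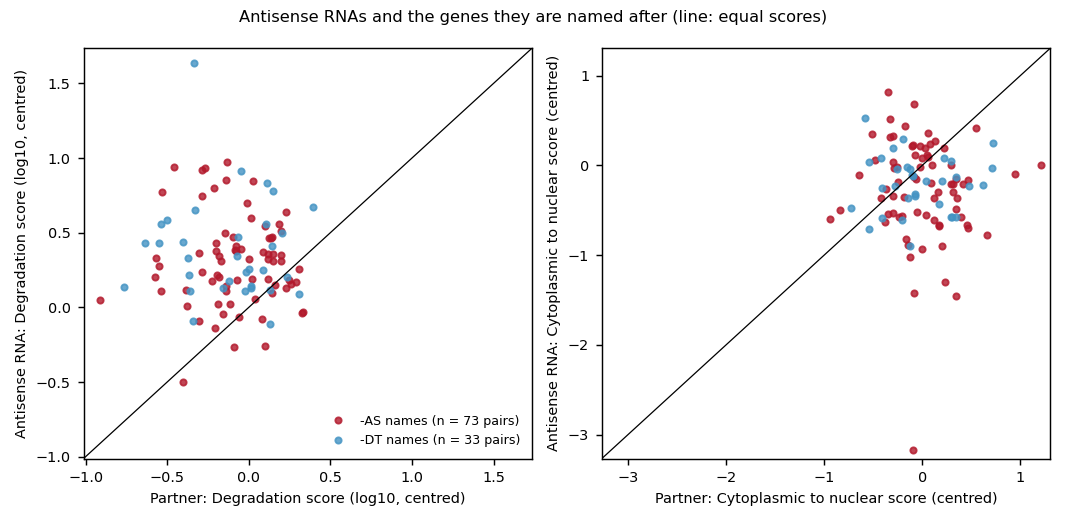
Deposited scores of each antisense RNA (y axes) against those of the gene it is named after (x axes), with the line of equal scores; degradation scores are log10, and -AS and -DT pairs are marked apart. In 88 of 106 pairs the antisense RNA lies above the line for degradation, and in 66 of 106 below it for the cytoplasmic to nuclear score.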

How the data were processed

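Mature and primary (unspliced) levels came from the authors' deposited table of TPM for 63568 GENCODE 19 entries in 18 libraries. Bowtie 1.0.1, RSEM 1.2.11 and hg19 are named in the submitters' processing notes; the sources used here do not state whether counting used strand. Rate, localisation and translation values are the authors' deposited scores, with synthesis and degradation on a log10 scale, per the file headers. The intron table holds the authors' excised share as a fraction, printed here as a percentage, and copies per cell are a signal estimated by the authors. Not used were 6 columns of single samples in the copies table and 5 columns of labelling times in the intron table.

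Mature values of intronless genes were used as listed, and no intronless member entered the primary or ratio fits. limma 3.58.1 (R 4.3.3, empirical Bayes with trend) was fitted over all genes with a mean of at least 1 TPM on log2(TPM + 1), and on log2((primary + 0.1)/(mature + 0.1)) for the ratio (primary mean of at least 0.1 TPM), with Benjamini-Hochberg adjustment over all genes and a threshold of 0.05. A fold change on log2(TPM + 1) understates the change of low genes. Labelled contrasts used the 15 labelled libraries and the total contrast all 18. The fits were tested on simulated data.

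Members and lists were chosen with earlier results of these data known. Named genes are the 6 highest members, up to 6 called members with the largest rise and fall in each fit, the 3 highest and lowest of each score, those nearest the minimum, up to 4 each way by selection method, and their partners; others are well-known RNAs named after their values were seen. Partners are genes whose symbol is the member's without its ending. Names, gene types and neighbours came from GENCODE 29 and promoter windows from RefSeq (GRCh38.p14). Other pseudocounts, filters, scalings, abundance minimums, left-out libraries and a replicate block were tried.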

Additional observations from a re-analysis of the deposited data

How the results depend on the processing

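For mature RNA from 7.5 to 60 min, median-ratio scaling, quantile normalization and rescaling over mature transcripts gave 26, 24 and 19 members lower with medians of −0.45, −0.38 and −0.35. Over all genes 1307, 1176 and 960 were lower. Leaving out 1 library gave 9 to 13 higher, 3 to 8 lower and medians of −0.19 to −0.021. Over all genes that gave 1835 to 2226 higher and 408 to 558 lower. For primary RNA, median-ratio scaling and quantile normalization gave 52 and 44 higher, 1 and 2 lower, and medians of 0.45 and 0.33. Of 14497 genes, 3175 and 2667 were higher and 3154 and 3709 lower. THUMPD3-AS1 turned to 0.46 and 0.35 and ENSG00000188206 to 0.47 and 0.17 under these scalings. Leaving out 1 library gave 53 to 78 lower, 1 to 1 higher and medians of −0.90 to −0.63. Over all genes that gave 9738 to 10851 lower and 56 to 117 higher. For the ratio, 1 member was higher with a pseudocount of 1 and 1 without the trend, and leaving out 1 library gave 0 to 2 higher, 23 to 32 lower and medians of −1.07 to −0.78. Of 13879 genes, 209 and 152 were higher with that pseudocount and without the trend. With 1 library left out, 125 to 165 genes were higher and 7637 to 8485 lower. For total against labelled RNA, a pseudocount of 0.1 gave 2 higher and a median of −2.02, no filter gave 1 higher, and median-ratio and quantile scaling gave 97 and 78 lower with medians of −0.90 and −0.73. Over all genes 789 were higher with that pseudocount and 1273 without the filter. The 2 scalings left 2517 and 2511 of 16580 genes lower. Leaving out 1 library gave 1 to 4 higher, 132 to 170 lower and medians of −1.85 to −1.50. Over all genes that gave 560 to 910 higher and 4784 to 7165 lower. At a minimum of 2 TPM the median synthesis, processing and cytoplasmic scores were −0.19, −0.13 and −0.20, and at 10 TPM the synthesis score was 0.084. The unspliced share at 2 TPM was 51.0%, 52.2%, 48.7%, 43.7% and 39.2% from 7.5 to 60 min, and at 10 TPM 40.3% at 7.5 min and 33.7% at 30 min. By selection method, a pseudocount of 0.1 gave 6 members higher after poly(A) selection, against 5.49% of all genes. The cause of these shifts was not tested. With the replicate number as a block, 17 members were higher and 27 lower in mature RNA, against 3669 and 1090 of 16739 genes. The numbers share no stated day or culture. Deviations of same-numbered libraries at 7.5 and 60 min correlated at 0.27, 0.08 and 0.09, and not every library correlated best with its own number. The first libraries of these times correlated with libraries of other numbers at −0.20 to −0.11. Whether the first libraries share an origin was not tested. No paired analysis was possible for total RNA because its numbers name selection methods. Of 200 recomputed summary values, 154 stayed within the limits set for being the same, and for single genes 682 of 799 values kept their call. TPM hold no depth, so low values cannot be given a counting error.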
